A study of Mus musculus with 12 samples.

Results

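The growth hormone and STAT5 axis of mouse liver was described by 9 genes: the receptor Ghr, the transcription factor Stat5b, the feedback inhibitors Socs2 and Cish, the endocrine products Igf1 and Igfals, and Cux2, Bcl6 and A1bg, whose levels in liver follow the pattern of growth hormone secretion. They were chosen by name, and every probe whose RefSeq accession belongs to one of these genes was taken. This gave 16 probes of the 39429 on the array, with 4 for Igf1, 3 for Socs2, 2 each for Ghr and Stat5b and 1 for each of the others. All 16 were well above background on all 12 arrays, so no member was lost to a filter on dim signal.

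Growth hormone from the pituitary binds its receptor on hepatocytes, and the receptor-bound kinase JAK2 phosphorylates STAT5, which enters the nucleus and switches on target genes. Some targets, among them Igf1 and Igfals, carry the signal to the rest of the body, and others, such as Socs2 and Cish, encode inhibitors that end it. In rodents the hormone is released in sharp pulses in males and more continuously in females, and this pattern sets much of the difference between male and female liver, so that Cux2 and A1bg are female-biased genes and Bcl6 is a male-biased one.

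The livers came from female C57BL/6N mice that were bought at 6 weeks of age, acclimated for 2 weeks and then fed for 6 months. All mice received a normal formula diet with 10% of its energy as fat. In the Ctrl group (n = 3) the carbohydrate was corn starch and sucrose, and the RS group (n = 3) had the same diet with added resveratrol, a plant polyphenol. In the DJ group (n = 3) Dongjin rice, a japonica variety, took the place of corn starch and sucrose, and in the DJ526 group (n = 3) this was DJ526, a Dongjin line that makes resveratrol through a stilbene synthase gene from peanut. DJ526 therefore differed from DJ by the transgene as well as by resveratrol, and nothing in the labels ties mice of different groups to each other. Each liver was 1 mouse and 1 one-colour array, and mice are named here by group and replicate number, as in Ctrl 1. In whole liver, fewer cells of a type and less RNA per cell cannot be told apart.

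Across arrays, 73% to 80.8% of spots exceeded background clearly, and 0 were saturated. The 10 hepatocyte markers, Alb and Ttr among them, were well above background on all 12 arrays. Slide 1 held Ctrl 1 to 3 and DJ 1, slide 2 held DJ 2, DJ 3, RS 1 and RS 2, and slide 3 held RS 3 and DJ526 1 to 3. Diet and slide thus largely went together, and no slide held both Ctrl and RS, both Ctrl and DJ526 or both DJ and DJ526. In a supplementary sample table of the study the array identifiers of RS and DJ are exchanged relative to the labels. The labels were followed here, and the exchange was an alternative.

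STAT5 dimers bind a palindrome that reads TTCNNNGAA on both strands, where N is any base. The palindrome was searched in RefSeq promoter windows of the GRCm38.p6 build, from 250 bases before to 50 bases after each annotated start. It occurred in 2726 of 32851 windows (8.3%) and at 2582 of 27025 genes (9.55%). Of the 8 members with a window, 4 had it, with 9 sites in 6 of 14 windows. A match is a run of letters and not a measured binding site. Ghr, Stat5b, Igf1 and Cux2 had no match in their windows, and Socs2 is named only, without a window. Every stretch with a match is shown in the 5′ to 3′ direction of the gene, with the palindrome in capitals.
Cish, chr9:107296654-107296683, plus strand: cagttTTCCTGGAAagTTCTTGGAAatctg
A1bg, chr15:60921336-60921364, minus strand: tgcccctaccTTCCAGGAAgggcaaacaa
Bcl6, chr16:23988952-23988980, minus strand: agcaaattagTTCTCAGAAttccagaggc
Bcl6, chr16:23981433-23981461, minus strand: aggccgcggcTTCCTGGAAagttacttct
Bcl6, chr16:23981387-23981415, minus strand: ggcaggagtgTTCTGTGAAatccttagag
Bcl6, chr16:23981353-23981381, minus strand: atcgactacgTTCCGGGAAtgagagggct
Igfals, chr17:24877598-24877626, plus strand: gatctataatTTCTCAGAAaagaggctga
Igfals, chr17:24878163-24878191, plus strand: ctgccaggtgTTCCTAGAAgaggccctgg

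Cish alone held 2 palindromes side by side, and the first of them began at base 1 of the annotated transcript. The palindrome of A1bg began 84 bases before the start. Bcl6 and Igfals have more than 1 annotated start, and each distance is to the start of the window that held the site. At Bcl6, 1 palindrome began 118 bases before its start and the others 88 to 168 bases before another start. Those of Igfals began 236 and 58 bases before different starts, the second of which lies downstream of the first.

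No diet changed a member past the threshold. A level is given throughout as log2 of the background-subtracted signal minus log2 of its array's 75th percentile, so that 0 is the brightness of that percentile, a difference of 1 is a doubling, and levels of different probes cannot be compared. With limma and Benjamini-Hochberg adjustment over all probes at a threshold of 0.05, 0 of 9 members were called in each of the comparisons of RS, DJ and DJ526 with Ctrl, of DJ526 with DJ and with RS, of the effects of resveratrol on both kinds of diet, and of rice with starch and sucrose. Over all probes the same rule called 0% for RS against Ctrl, 0% for DJ against Ctrl, 0.00507% for DJ526 against Ctrl, 0.0101% for DJ526 against DJ, 0.00761% for DJ526 against RS, 0% for the difference between the effects and 0% for rice. The smallest adjusted p of a member by limma was 0.422, for Bcl6 in DJ526 against Ctrl. The methods' t-test with the same adjustment also called 0 of 9 in each comparison.

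At an unadjusted p under 0.05 in limma, 1 of 9 members passed in DJ against Ctrl (A1bg, higher), 1 in DJ526 against Ctrl (Bcl6, higher), 1 in DJ526 against RS (Stat5b, higher) and 0 in each of the other comparisons. The same rule passed 6% of all probes for RS against Ctrl, 5.22% for DJ against Ctrl, 10.8% for DJ526 against Ctrl, 9.81% for DJ526 against DJ, 5.5% for DJ526 against RS, 6.09% for the difference between the effects and 4.57% for rice, so that the share of members was near the background. The methods' t-test passed 1 member, Stat5b in DJ526 against RS. The members' values did not overlap between the groups for A1bg in DJ against Ctrl and for Stat5b in DJ526 against RS, 1 of 9 each, where 9.34% and 11.1% of all probes did not overlap. For RS against Ctrl, DJ526 against Ctrl, DJ526 against DJ and rice it was 0 of 9, against 10.2%, 20.6%, 18.4% and 0.119% of all probes. These counts take each gene by its brightest probe. Over all 16 probes, 2, 3 and 2 did not overlap with Ctrl in RS, DJ and DJ526, and 2, 1 and 1 passed the unadjusted threshold there. In DJ526 against DJ 1 did not overlap and 0 passed, and in DJ526 against RS 2 did not overlap and 1 passed. The comparisons with Ctrl share its arrays, so each is described by its own values.

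**Figure D1:**
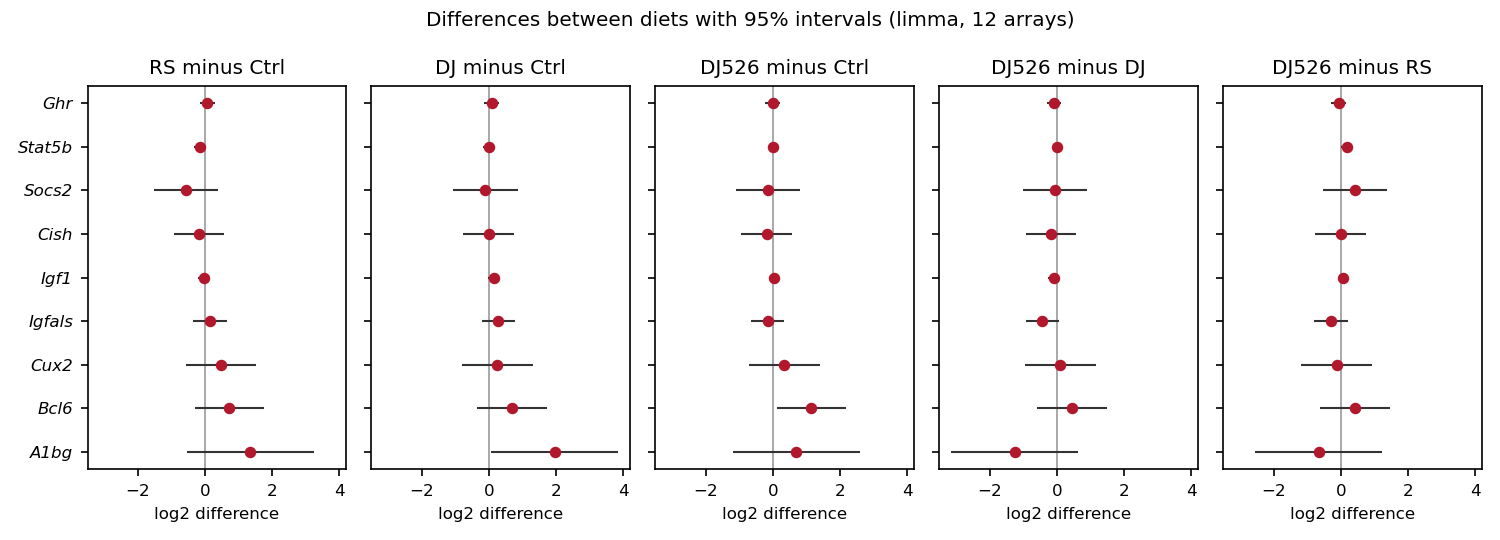
Log2 difference of each gene between diets by its brightest probe (points) with the 95% interval from limma (bars), 1 panel per comparison. The intervals of Ghr, Stat5b and Igf1 are narrow around 0, and those of A1bg are the widest. Only A1bg in DJ minus Ctrl, Bcl6 in DJ526 minus Ctrl and Stat5b in DJ526 minus RS have an unadjusted p under 0.05.

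The members fell into a tight set and a variable one. The SD within groups was 0.0819 for Igf1, 0.0852 for Stat5b and 0.128 for Ghr, and 7.93%, 9.09% and 26.3% of the 27285 probes well above background on all arrays had a smaller one. The median of those probes was 0.191. Igfals had an SD of 0.313 (77.2% of probes smaller), Cish 0.484 (91.9%), Socs2 0.619 (95.9%), Bcl6 0.668 (96.7%), Cux2 0.681 (96.8%) and A1bg 1.23 (99.5%). By their brightest probes, receptor, transcription factor and main endocrine product thus differed little between mice. Feedback inhibitors and the genes set by the hormone's pattern differed more than most probes. The other Igf1 probes had SDs of 0.111, 0.206 and 0.123, so that 1 of them was above the median. Probes of similar brightness printed near the members deviated from their own means by a median of -0.13 to 0.1 on any array.

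**Figure D2:**
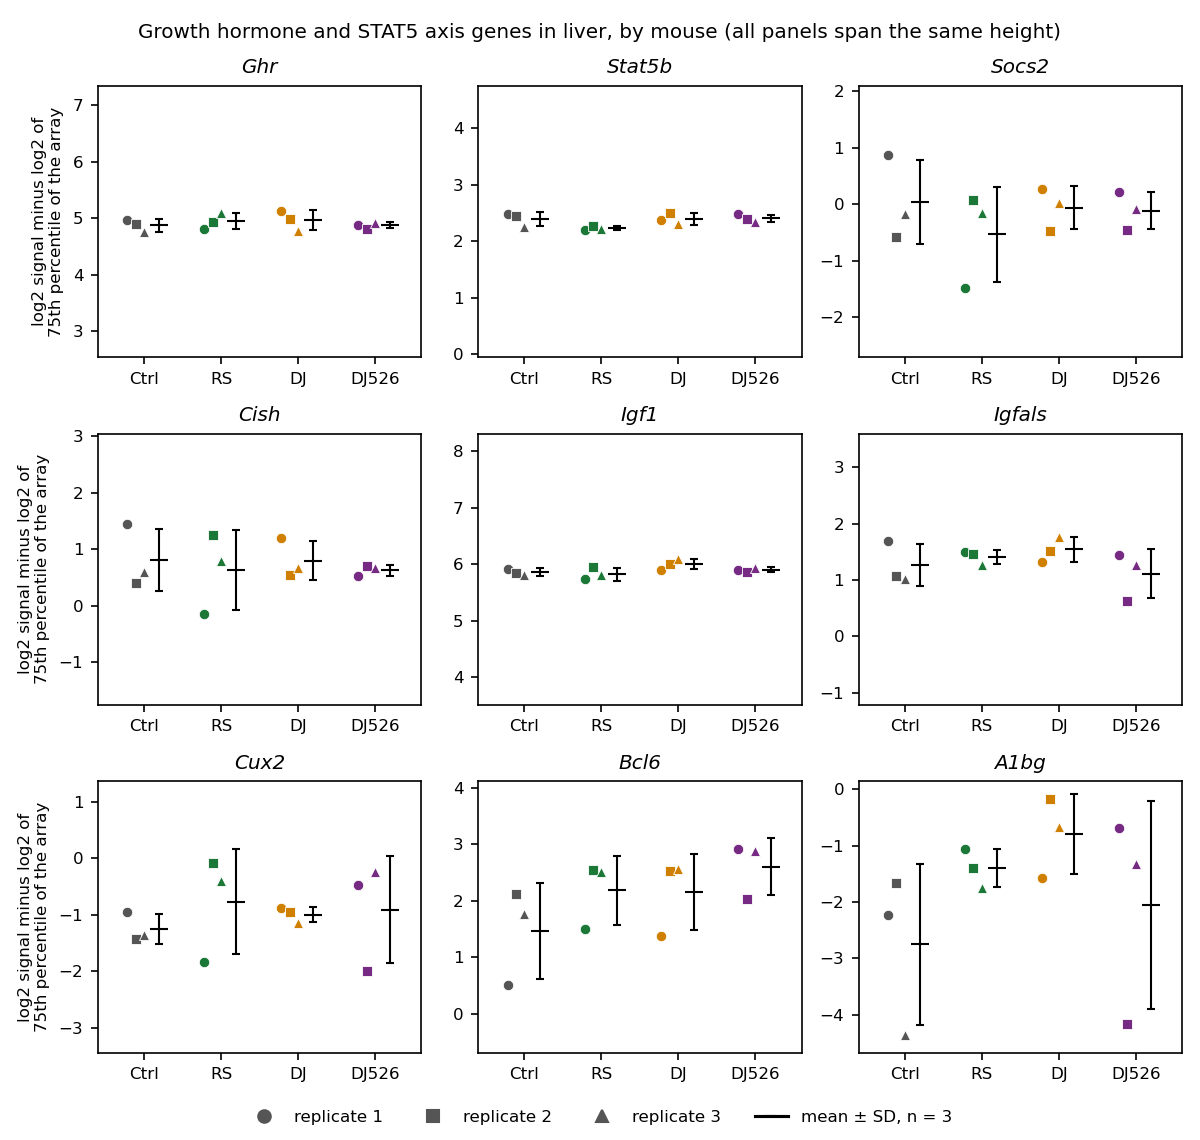
Level of each of the 9 genes in each liver by its brightest probe, as log2 signal minus log2 of that array's 75th percentile, with mean and SD (n = 3) beside the mice of each diet. Every panel spans the same height, so that the points of Ghr, Stat5b and Igf1 lie almost on a line while those of A1bg run from -4.36 to -0.17.

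Ghr, which encodes the receptor and so gates the whole response, spanned only 0.37 log2 units over all livers. Its brighter probe read 4.98, 4.90 and 4.76 in Ctrl 1 to 3, 4.82, 4.93 and 5.10 in RS, 5.13, 4.99 and 4.78 in DJ and 4.89, 4.82 and 4.92 in DJ526. All groups overlapped, and from the highest mean to the lowest the order was DJ, RS, Ctrl and DJ526, with each neighbour inside the spread of the next. Against Ctrl, the level of RS differed by 0.07 (95% interval -0.15 to 0.3), that of DJ by 0.09 (-0.14 to 0.31) and that of DJ526 by 0 (-0.23 to 0.22). The dimmer probe, designed on another transcript accession, was lowest in Ctrl, at 4.33, 4.17 and 4.34, against 4.44, 4.49 and 4.55 in RS, 4.36, 4.47 and 4.43 in DJ and 4.39, 4.35 and 4.48 in DJ526. Ctrl thus lay below each of the other groups without overlap, with differences of 0.14 in DJ (adjusted p = 0.958 by limma) and 0.13 in DJ526 (adjusted p = 0.54). The difference of RS from Ctrl was 0.21 (standard error 0.0687, unadjusted p = 0.00985, adjusted p = 0.666 by limma), and the effect of resveratrol on rice minus that on starch and sucrose was -0.23 by this probe (adjusted p = 0.796). Probes of similar brightness printed near the dimmer one deviated from their own means by a median of -0.13 to 0.09 on any array. That is of a size like these differences, and all Ctrl arrays were on slide 1. The part of the array in them was not tested. The brighter probe did not separate Ctrl from RS.

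Stat5b, the STAT5 form that carries most of the growth hormone signal in liver, was lowest in the RS livers by both of its probes. The brighter probe read 2.20, 2.27 and 2.22 in RS, against 2.48, 2.44 and 2.25 in Ctrl, 2.38, 2.49 and 2.30 in DJ and 2.47, 2.39 and 2.34 in DJ526. RS lay below every DJ and every DJ526 mouse and overlapped with Ctrl 3 alone, while Ctrl, DJ and DJ526 overlapped with each other. The dimmer probe read 1.17, 1.15 and 1.24 in RS and 1.23 to 1.41 in the other groups, so that RS 3 reached DJ 3 but no Ctrl or DJ526 mouse. The difference between RS and Ctrl was -0.16 (standard error 0.077, adjusted p = 0.844 by limma) by the first probe and -0.17 (standard error 0.0669, adjusted p = 0.763) by the second. DJ526 stood 0.17 above RS (standard error 0.077, adjusted p = 0.9 by limma), a fold of 1.13. On the slides that hold RS with another group, DJ was 0.16 above RS on slide 2 and DJ526 0.18 above RS 3 on slide 3. With RS and DJ exchanged, the differences of RS from Ctrl and of DJ526 from RS became 0 and 0.01, which follows from the exchange itself.

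Socs2 and Cish are both induced by STAT5 and both encode SH2 proteins that shut off signalling at the receptor. Between mice of the same diet they varied most in RS and Ctrl. For Socs2 the SD was 0.844 in RS, 0.749 in Ctrl, 0.385 in DJ and 0.333 in DJ526. For Cish it was 0.711, 0.55, 0.348 and 0.0961 in the same order. Socs2 read 0.88, -0.57 and -0.18 in Ctrl, -1.49, 0.07 and -0.16 in RS, 0.27, -0.48 and 0.02 in DJ and 0.21, -0.46 and -0.09 in DJ526. Ctrl 1 was the highest of 12 and RS 1 the lowest, 5.17-fold apart, and all groups overlapped. This probe is printed 10 times on each array, and the SD between its spots was 0.0403 to 0.0824, far below the distance between mice. The 2 other Socs2 probes also had Ctrl 1 highest and RS 1 lowest, with ranges of 2.25 and 2.2. From the highest mean the order was Ctrl, DJ, DJ526 and RS, and no neighbours in it were apart. The difference of RS from Ctrl was -0.57 (95% interval -1.53 to 0.39), and those of DJ and DJ526 were -0.11 and -0.16, with adjusted p from 0.921 to 1 by limma.

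Cish read 1.44, 0.41 and 0.59 in Ctrl, -0.15, 1.25 and 0.80 in RS, 1.20, 0.55 and 0.66 in DJ and 0.52, 0.70 and 0.66 in DJ526. The same mice stood at the ends as for Socs2, Ctrl 1 at the top and RS 1 at the bottom, with a fold of 3 between them. DJ526 had the smallest spread, and again all neighbouring groups overlapped. Against Ctrl, the differences were -0.18 for RS (95% interval -0.93 to 0.57), -0.01 for DJ (-0.77 to 0.74) and -0.19 for DJ526 (-0.94 to 0.56), so that a doubling or halving lay outside each of them.

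Across the 12 mice, the Socs2 and Cish levels went together. Among 36 pairs of members this was the only one that passed after adjustment, with Pearson's r = 0.871 (permutation p = 0.00048, adjusted p = 0.0173, 100000 permutations, two-sided). Spearman's rho was 0.706 (permutation p = 0.0122, adjusted p = 0.361) and did not pass. Without Ctrl 1 and RS 1, the mice farthest from the median of Socs2, r was 0.577, so that much of the relation rested on those 2 mice. It was 0.903 for deviations from the group means and 0.865 for deviations from the slide means. Igfals and A1bg were next (r = 0.743, permutation p = 0.00683, adjusted p = 0.123), and r was 0.533 without DJ 3 and DJ526 2. No other pair had an adjusted p for r under 0.5.

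**Figure D3:**
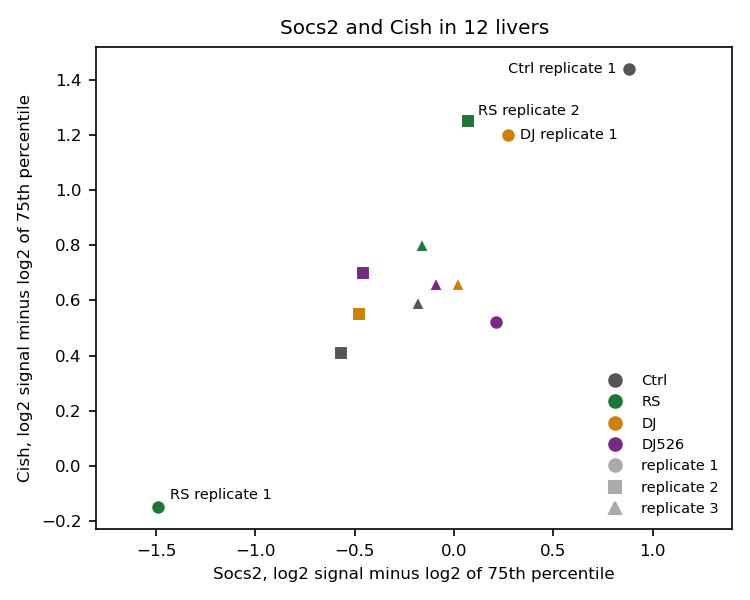
Socs2 (x axis) against Cish (y axis) in 12 livers, both as log2 signal minus log2 of that array's 75th percentile, with colour for diet and symbol for replicate number. Ctrl 1 lies at the upper right and RS 1 at the lower left, far from the others, and mice of every diet are mixed between them.

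Igf1, the main hormone that liver releases in response to growth hormone, was nearly the same in all mice by its brightest probe. This probe read 5.92, 5.85 and 5.80 in Ctrl, 5.73, 5.95 and 5.80 in RS, 5.90, 6.00 and 6.09 in DJ and 5.89, 5.86 and 5.94 in DJ526. DJ had the highest mean and RS the lowest, but each neighbour in the order DJ, DJ526, Ctrl and RS overlapped with the next. DJ was 0.14 above Ctrl (95% interval -0.02 to 0.31, adjusted p = 0.983 by limma), and the differences of DJ526 and RS from Ctrl were 0.04 and -0.03. The other probes differed in direction. The second had both rice groups above Ctrl without overlap, by 0.19 in DJ and 0.18 in DJ526, and rice 0.17 above starch and sucrose (unadjusted p = 0.0213, adjusted p = 0.975). The third put DJ below Ctrl, at -0.19 (standard error 0.151), and the fourth at -0.1 (standard error 0.106). All 4 are annotated to the same transcript accession.

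Igfals encodes the acid-labile subunit that holds IGF1 in a long-lived complex in blood, and it varied more than Igf1. It read 1.69, 1.07 and 1.02 in Ctrl, 1.50, 1.46 and 1.26 in RS, 1.32, 1.52 and 1.76 in DJ and 1.45, 0.62 and 1.26 in DJ526. The lowest mouse, DJ526 2, stood apart from the rest of its group, and all groups overlapped in the order DJ, RS, Ctrl and DJ526. Of the comparisons between a pair of diets, DJ526 against DJ gave the largest difference, -0.43 (standard error 0.224, 95% interval -0.92 to 0.07, adjusted p = 0.56 by limma). The effect of resveratrol on rice minus that on starch and sucrose was -0.57 (standard error 0.317, adjusted p = 0.872). Its promoter palindromes are shown above with those of Cish.

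Cux2 encodes a repressor of male-biased genes that is made mainly in female liver. It read -0.95, -1.43 and -1.36 in Ctrl and -0.89, -0.96 and -1.14 in DJ, but -1.84, -0.09 and -0.40 in RS and -0.48, -1.99 and -0.25 in DJ526. RS and DJ526 thus each held 2 mice above all of Ctrl and DJ and 1 mouse below them. From the highest mean the order was RS, DJ526, DJ and Ctrl. RS was 0.47 above Ctrl (95% interval -0.58 to 1.53), DJ 0.25 and DJ526 0.34, with adjusted p from 0.829 to 1 by limma.

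Bcl6 encodes a repressor that is more abundant in male liver and competes with STAT5 for its sites, and it also marks germinal-centre B cells. It read 0.51, 2.11 and 1.77 in Ctrl, 1.49, 2.55 and 2.51 in RS, 1.37, 2.52 and 2.56 in DJ and 2.91, 2.02 and 2.88 in DJ526. Ctrl 1 was far below every other mouse, and DJ526 2, the lowest of its group, overlapped with Ctrl 2. From the highest mean the order was DJ526, RS, DJ and Ctrl, and neighbours in it overlapped. DJ526 was 1.14 above Ctrl (standard error 0.468, 95% interval 0.11 to 2.17, adjusted p = 0.422 by limma), a fold of 2.2. Without Ctrl 1 this fell to 0.66 (unadjusted p = 0.155 in limma), and with slide as a block the sign turned, to -0.52 (unadjusted p = 0.626). No slide held both groups. RS was 0.72 above Ctrl (adjusted p = 0.929) and DJ 0.68 above it (adjusted p = 0.998), whereas DJ 1 was 0.09 below the Ctrl mean of its own slide, at -0.09.

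Lymphocyte markers were read beside Bcl6. All 12 B and T cell markers were well above background and none was at 0. Of these, 10 were higher in RS than in Ctrl by their estimate, 11 in DJ, and 12 of 12 in DJ526, whether or not they passed a test. The exceptions were Ptprc, the CD45 antigen of all leukocytes, at -0.17 for both RS and DJ, and Cd3e, a T cell receptor chain, at -0.09 for RS. By mouse, the median deviation of the markers from their means over 12 mice was uneven. It was -0.41, -1.03 and 0.05 in Ctrl, 0.41, 0.06 and -0.43 in RS, 1.27, -0.34 and -0.34 in DJ and 1.05, 0.14 and -0.42 in DJ526. The counts are thus not separate observations of a diet, and DJ 1 and DJ526 1 weigh much in them. The median difference from Ctrl was 0.5 for RS, 0.6 for DJ and 0.73 for DJ526, beside 0.02, -0.01 and 0.03 over all well-measured probes. Of the 12, 0, 1 and 1 passed an unadjusted p under 0.05 in limma, where 6.61%, 5.59% and 11.7% of all well-measured probes did. Their summed signal, in multiples of each array's 75th percentile, was 20.8 to 35.3 in Ctrl, 29.2 to 43 in RS, 37.3 to 40 in DJ and 33.8 to 42.8 in DJ526, but 71% to 90% of it was the single probe of Cd4. The B cell gene Ms4a1 differed most, by 1.83 in DJ526 against Ctrl (standard error 0.969, adjusted p = 0.526 by limma). By mouse, Ms4a1 was high in DJ 1 (0.75) and RS 1 (-0.72), where Bcl6 was among the 3 lowest. Ms4a1 was low in DJ 2 (-3.01) and DJ526 3 (-2.66), where Bcl6 was 2.52 and 2.88. In DJ526 1 both were high, Ms4a1 at 0.24 and Bcl6 at 2.91, the highest of 12. In Ctrl 1 both were low, Ms4a1 at -2.83 and Bcl6 at 0.51. The part of lymphocytes in the Bcl6 values was not tested.

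A1bg, a secreted immunoglobulin-family protein made almost only by female liver in mice, had the widest spread of all members, 18.3-fold between DJ 2 and Ctrl 3. It read -2.23, -1.67 and -4.36 in Ctrl, -1.07, -1.39 and -1.75 in RS, -1.57, -0.17 and -0.67 in DJ and -0.69, -4.16 and -1.33 in DJ526. Ctrl 3 and DJ526 2 were far below all others, which lay between -2.23 and -0.17. The order of the means was DJ, RS, DJ526 and Ctrl, with neighbours overlapping. All 3 DJ mice were above all 3 Ctrl mice, with a difference of 1.95 (standard error 0.859, 95% interval 0.06 to 3.84, adjusted p = 0.953 by limma). Without Ctrl 3 it was 1.15 (unadjusted p = 0.198) and without DJ 2 it was 1.63 (unadjusted p = 0.127). Within slide 1, DJ 1 was 1.18 above the mean of Ctrl, and with slide as a block the difference was 1.18 (unadjusted p = 0.383).

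RS was 1.35 above Ctrl in A1bg (95% interval -0.54 to 3.24, adjusted p = 0.925), and DJ526 0.69 above it (adjusted p = 0.803), which became 1.74 without DJ526 2 (unadjusted p = 0.0281) and -0.11 without Ctrl 3. The effect of resveratrol on rice minus that on starch and sucrose was -2.61 (standard error 1.21, unadjusted p = 0.0548, adjusted p = 0.828 by limma), the largest size of any member. DJ526 2 had the lowest A1bg of its group and also the lowest Cux2 and Igfals of all 12 mice, whereas Ctrl 3 was lowest in A1bg without being lowest in Cux2.

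The rest of the pathway was described by lists of known genes, and 0 genes of any of them passed the adjusted threshold in any comparison by limma. Of 24 genes of receptor and JAK2-STAT signalling, among them Il6ra, Ptpn11 and Stat3, the brightest, 0 passed an unadjusted p under 0.05 in RS, DJ or DJ526 against Ctrl and in DJ526 against DJ. Irs2, which links the insulin receptor to its kinases, passed in DJ526 against RS, at 0.43 (adjusted p = 0.875), and Shc1, an adaptor, in the difference between the effects of resveratrol, at -0.25 (adjusted p = 0.808). Against Ctrl the list had medians of 0.03 (RS), 0.04 (DJ) and 0.07 (DJ526), beside 0.02, -0.01 and 0.03 over all probes well above background. Stat5a, the close relative of Stat5b, had the lowest value of the list in DJ526 against RS, at -0.31 (adjusted p = 0.986). Socs1, another inhibitor of the family, had the highest value in each comparison with Ctrl, 0.43, 0.39 and 0.49, with adjusted p from 0.648 to 1.

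Of 14 well-measured genes for IGF ligands, receptors and binding proteins, 4 passed the unadjusted threshold in RS against Ctrl (3 higher), 2 in DJ against Ctrl (1 higher) and 5 in DJ526 against Ctrl (2 higher), where 6.61%, 5.59% and 11.7% of all such probes did. Igfbp2, a binding protein that growth hormone holds down, read 5.21, 5.01 and 5.13 in Ctrl, 4.80, 4.86 and 4.28 in RS, 4.52, 4.77 and 4.18 in DJ and 4.60, 4.62 and 4.69 in DJ526. RS, DJ and DJ526 each lay below Ctrl without overlap, by -0.47, -0.63 and -0.48 (standard error 0.164, adjusted p = 0.691, 0.75 and 0.33 by limma). Igf2, the fetal growth factor, was well above background on 11 of 12 arrays and close to their dim end, at -6.68 to -6.23 in Ctrl and -6.05 to -5.27 in the others, and was 0.77, 0.64 and 0.73 above Ctrl (adjusted p = 0.636, 0.904 and 0.313). Igfbp1, the brightest of the list, differed by -0.37, 0.32 and -0.45 with a standard error of 0.501. The lowest value in DJ526 against Ctrl was that of Igfbp6, at -0.77 (adjusted p = 0.446).

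Of 19 liver transcription factors that act with STAT5, among them Hnf4a, Cebpb and Onecut2, the brightest, 2 passed the unadjusted threshold in RS against Ctrl (both higher), 2 in DJ against Ctrl (both lower) and 0 in DJ526 against Ctrl, where 6.61%, 5.59% and 11.7% of all well-measured probes did. Onecut1, a female-biased activator that growth hormone induces, was lowest of the list in all 3, at -0.58, -0.96 and -0.77 (adjusted p = 0.936, 0.946 and 0.532). It read -2.27, -3.30 and -3.28 in Ctrl, with Ctrl 1 the highest of 12, and -3.35, -3.69 and -4.70 in DJ, with DJ 3 the lowest.

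Genes that differ between male and female liver read out the hormone's pattern downstream of these regulators. Of 25 female-biased genes, 23 had a probe, all well above background, with Cyp2a4, Hamp2 and Cyp2b13 the brightest. At an unadjusted p under 0.05 in limma, 5 were higher and 0 lower in RS against Ctrl, 2 higher and 2 lower in DJ against Ctrl, and 1 higher and 3 lower in DJ526 against Ctrl, where 6.61%, 5.59% and 11.7% of all well-measured probes passed in either direction. The medians were 0.29, 0.28 and 0.06, beside 0.02, -0.01 and 0.03 over all well-measured probes. Their summed signal was 550 to 664 in Ctrl and 756 to 874 in RS, without overlap. It was 540 to 820 in DJ and 614 to 819 in DJ526. A linear sum weighs bright genes most. Sult2a1 and Sult2a2, whose probes may share RNA, had means of 2.39 and 3.80 in Ctrl and 5.65 and 5.96 in RS. The sum was not taken without these genes. Its lack of overlap is thus not a finding about the whole list.

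Sult2a1, a sulfotransferase of bile acids and steroids, had the largest differences of this list. It read 3.26, 2.01 and 1.89 in Ctrl, 6.37, 5.38 and 5.20 in RS, 6.73, 6.41 and 1.20 in DJ and 4.08, 6.15 and 3.70 in DJ526. All RS and DJ526 mice were above all Ctrl mice, and DJ 3 was the lowest of 12. The differences from Ctrl were 3.26, 2.39 and 2.25 (standard error 1.22, adjusted p = 0.743, 0.97 and 0.536 by limma). Its probe may also take up RNA of the near-identical Sult2a genes.

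Cyp3a41b, a female-specific steroid hydroxylase, had its lowest mean in DJ526, at 2.99, 1.88 and 1.35. It read 2.70, 4.42 and 3.09 in Ctrl, 3.40 to 5.09 in DJ and 3.72 to 4.87 in RS. DJ526 was -2.26 from DJ (standard error 0.565, adjusted p = 0.247 by limma) and -2.32 from RS (adjusted p = 0.363), without overlap in either case. From Ctrl, with which it overlapped, DJ526 differed by -1.33 (adjusted p = 0.436 by limma). This probe, too, may be shared with other Cyp3a genes. In the effect of resveratrol on rice minus that on starch and sucrose, 6 of the 23 genes passed the unadjusted threshold and all were below 0, where 6.62% of all well-measured probes passed. The 6 were Cyp3a41b, Cyp3a16, Atp6v0d2, Abcd2, Cyp2g1 and Sult1e1. The lowest value was that of Sult2a1, at -3.40, which did not pass (unadjusted p = 0.0754, adjusted p = 0.855 by limma).

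Of 28 male-biased genes, 22 had a probe and 21 were well above background, with Serpina1e, Ugt2b38 and Mup20 the brightest. At the unadjusted threshold 0 were higher and 1 lower in RS against Ctrl, 0 and 2 in DJ against Ctrl, 0 and 4 in DJ526 against Ctrl, and 1 and 4 in DJ526 against DJ. Of all well-measured probes, 6.61%, 5.59%, 11.7% and 10.6% passed in these comparisons. The medians against Ctrl were -0.05, -0.11 and -0.11. Serpina4-ps1, a serpin pseudogene transcript, read -2.02, -1.22 and -0.17 in Ctrl and was -2.37 from Ctrl in RS and -2.30 in DJ (adjusted p = 0.535 and 0.781), while DJ526, at -2.34, -3.17 and -1.31, was -1.14 from it (adjusted p = 0.547). Mup20, a urinary pheromone protein, had its lowest mean in DJ526, at 5.70, 4.23 and 4.74. DJ526 was -1.47 from DJ (standard error 0.373, adjusted p = 0.255 by limma), -1.10 from RS (adjusted p = 0.657) and -0.89 from Ctrl (adjusted p = 0.432). DJ526 1 lay above Ctrl 1 (5.37) and RS 3 (5.67), so DJ526 overlapped with both of these groups. Slco1a1, an uptake transporter of bile salts and steroids, was -1.75 from Ctrl in DJ526 (adjusted p = 0.392). Mup genes are close copies of each other, and their probes may share RNA.

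DJ 3 was extreme in some genes of both lists. It was the lowest of 12 mice in 7 of the 23 female-biased genes and the highest in 6 of the 21 male-biased ones. RS 2 and DJ 2 were each the highest in 6 female-biased genes. By the median deviation the lists as a whole did not set DJ 3 apart. It was -0.04 in DJ 3 and -0.34 in Ctrl 3 for female-biased genes, and 0.18 and 0.17 for male-biased ones. In DJ 3 Sult2a1 was 3.17 below its mean over all mice on the log2 scale, a deviation of -3.17. The male-biased Hsd3b5, a steroid-metabolising enzyme, read -1.51 there, where the other mice were between -5.83 and -4.02. Of the members read for the hormone's pattern, A1bg was -0.67, Cux2 -1.14 and Bcl6 2.56 in DJ 3, none of them the highest or lowest of 12. DJ526 2 was low in A1bg and Cux2, yet its Sult2a1, at 6.15, was the highest of DJ526.

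**Figure D4:**
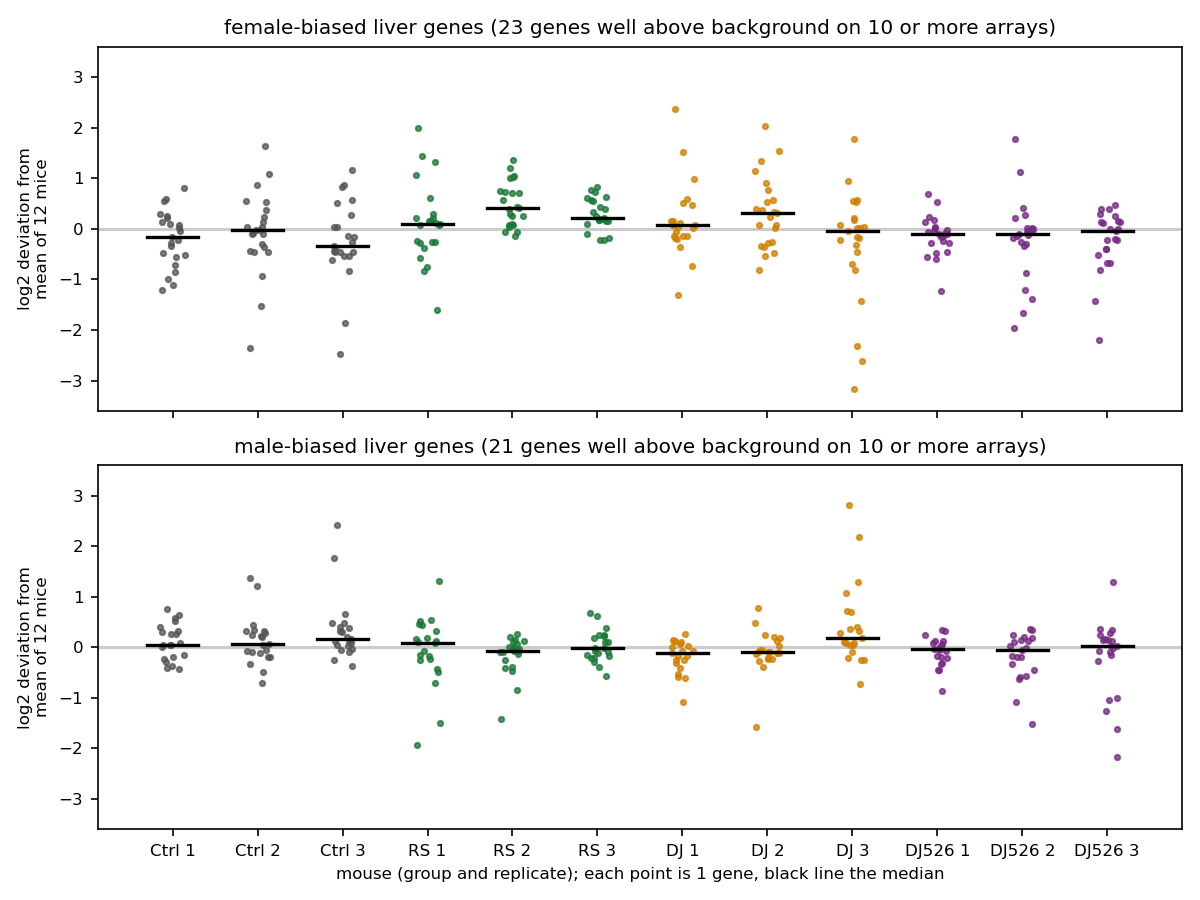
Deviation of each female-biased (top, 23 genes) and male-biased (bottom, 21 genes) liver gene from its mean over 12 mice, on the log2 scale, with 1 column per mouse, 1 point per gene and a black line at the median. The RS medians (0.1 to 0.41) lie above the Ctrl medians (-0.34 to -0.03) for female-biased genes, and DJ 3 has points far below 0 at the top and far above 0 at the bottom.

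As a description, the genes whose levels over the 12 arrays were most like those of each member were found among 15565 genes. For Cish these were Per1 (r = 0.877), Socs2 (0.871) and Tead3 (0.824), and for Socs2 they were Ugcg (0.896), Spata13 (0.876) and Aftph (0.871). Ghr was closest to Rbfox2 (0.908), Kdm8 (0.897) and Sybu (0.893), Stat5b to Tob1 (0.833), Ubr4 (0.825) and Cmklr1 (0.781), and Igf1, among others, to Fga (0.855) and Egln2 (0.855). Bcl6 was closest to Gpr19 (0.912), Zfand5 (0.907) and Gtf3c2 (0.906), A1bg to Atoh8 (0.907), Tfcp2 (0.899) and Tbcc (0.898), Cux2 to Emsy (0.926), Nsmce3 (0.88) and Rchy1 (0.874), and Igfals to Pdia4 (0.918), 2310033P09Rik (0.915) and D130020L05Rik (0.915). The arrays share slides and scaling, and the best of so many genes over 12 arrays is high by selection.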

How the data were processed

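Liver RNA of 12 mice was hybridised to one-colour 4x44K arrays. The extraction was by Trizol per the labels and by a column kit per the methods. The authors deposited intensity values of every spot from Feature Extraction (version 11.5.1.1, per the file headers), background-subtracted and on a linear scale, and a table of globally normalized intensity values, used as an alternative. Control and outlier-flagged spots were left out, spots of a probe were averaged, each array was divided by its 75th percentile and log2 was taken. Of 39429 probes, 27508 were named by accession through a RefSeq table, and 68 lacked a value on some array. Depth is signal over background here, and 3 arrays per group limit the precision. limma (version 3.58.1, R 4.3.3) was fitted over 12 arrays with 1 mean per diet and a variance trend, and adjusted by Benjamini-Hochberg over all probes. P-values measure the spread between these mice. The methods describe shared cages, and random assignment of cages as well as of mice to diets. The labels name no cage, so the part of cage in the values was not tested. Members and gene lists were chosen with earlier results of these data known. Genes were read by their brightest probe, other probes were named where they differed, and lists by their 3 brightest, highest and lowest genes. limma was checked on simulated data. The alternatives were other background corrections, scalings and filters, blocks for slide and replicate number, the methods' t-test, an exchange of RS and DJ and leaving out each mouse. Figures were drawn with matplotlib 3.10.9. Results of some items are not reported here.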

Additional observations from a re-analysis of the deposited data

How the results depend on the processing

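Under 24 alternatives the 9 members gave 1494 values, of which 0 were called and the smallest adjusted p was 0.3. The estimate changed sign in 126 of them, 20 with slide as a block and 12 with RS and DJ exchanged. Bcl6 in DJ526 against Ctrl reversed with slide as a block, to -0.52 from 1.14, and lay between 0.66 and 1.46 when each mouse was left out. The cause was not tested. The range of the Igf1 group means moved from 0.17 to 0.26 when arrays were scaled to their median instead of the 75th percentile. A1bg in DJ against Ctrl lay between 1.15 (without Ctrl replicate 3) and 2.49 (without Ctrl replicate 2). Replicate numbers were not taken as pairs, because same-numbered arrays correlated in their deviations from group means with r from -0.354 to 0.406, although 6 of 12 arrays were closest to one of their own number. With the replicate number as a block 0 signs changed and 0 members were called, and Bcl6 in DJ526 against Ctrl had an adjusted p of 0.368 by limma. Intervals of about 1 log2 unit or more on either side for A1bg, Cux2, Bcl6 and Socs2 limit what 3 mice per diet could show. Over all probes, 2, 4 and 3 were called in DJ526 against Ctrl, DJ and RS and 0 in the other comparisons. These became 9, 27 and 3 with quantile normalization, 4, 10 and 3 with the median, 4, 14 and 8 with the filter on dim probes, 0, 1 and 1 with normexp, 0, 11 and 1 without a variance trend, 0, 4 and 40 with slide as a block, 0 in each with the replicate block or only the groups compared, and 173, 107 and 28 without RS replicate 3. The comparisons with 0 called gained 1 (RS) and 8 (DJ against Ctrl), 17 (difference between effects) and 3 (rice) with slide as a block, and the difference between effects 19 without DJ replicate 1.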
